A study of Caenorhabditis elegans with 2 samples.

Results

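The genes med-1, med-2, end-3, end-1, elt-7, elt-2, elt-1 and elt-3 encode GATA factors, zinc finger proteins of a family named for binding DNA at the letters GATA. The products of med-1 and med-2 bind a different site, AGTATAC. They are 8 named genes out of 19973 protein-coding genes on the nuclear chromosomes, and the rule that lists them uses no measured value. The genes were nevertheless chosen with earlier results of these data known. They are described here for where AMA-1 lies on them in early Caenorhabditis elegans embryos. AMA-1 is the biggest protein of the RNA polymerase II complex and holds its active site, so its summits mark where polymerase sits on DNA. The embryos were of the wild-type strain N2, whole, of both sexes pooled, and their exact age is not known. A single group was measured by chromatin immunoprecipitation and sequencing, with 2 biological replicates from separate biosamples and no second condition. The group therefore has nothing to be tested against, and ranks, counts and positions are given as descriptions. In whole embryos, fewer cells with polymerase on a gene and less polymerase per cell cannot be told apart.

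The endoderm of this worm comes from a single early blastomere, E, the daughter of EMS. The maternal factor SKN-1 switches on the near-identical genes med-1 and med-2 in EMS, and their products help to switch on end-3 and end-1 in E. END-3 and END-1 then start elt-7 and elt-2, which stay on and drive the genes of the intestine. In the ectoderm, elt-1 sets the fate of epidermal cells and elt-3 acts after it in the differentiating epidermis. The genes of the upper endoderm steps are known to be on briefly and in few cells, whereas elt-1 is active in a larger number of cells.

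The site that links these steps is written in the DNA upstream of end-3 and end-1. MED proteins bind the letters AGTATAC, and this motif was searched on both strands in the 1000 bp before each annotated 5' end. It occurred 4 times before end-3 and 2 times before end-1, and 0 times before each of the other 6 genes, med-1, med-2, elt-7, elt-2, elt-1 and elt-3. By comparison, 6.05% of all protein-coding genes had at least 1 match in that stretch, 1.41% had at least 2 and 0.0801% had at least 4. The matches are shown with their flanks because no AMA-1 summit lay in the 1000 bp that hold them. Sequences are of the plus strand of WBcel235, which is the ce11 assembly, and capitals mark the motif or its reverse complement.

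end-3, chrV:14014451-14014479, first motif base 233 bp before the gene: aaagaagtaaaAGTATACcaaacaagtat
end-3, chrV:14014500-14014528, 184 bp before: tccgacaaaagAGTATACactgattgtat
end-3, chrV:14014541-14014569, 143 bp before: gaatagctgaaAGTATACcacgttcaaag
end-3, chrV:14014604-14014632, 80 bp before: ggttgctgaaaAGTATACggaacgctgag
end-1, chrV:13984923-13984951, 194 bp before: tgagacggaaaAGTATACcttttggcgga
end-1, chrV:13984979-13985007, 138 bp before: caagttgaactGTATACTtcccgccacac

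A GATA-type motif was counted in the same way. The letters TGATAA or AGATAA, on either strand, occurred 6 times in the 1000 bp before elt-2 and 2 times before elt-7. The other 6 genes had 3 matches each. Such matches are common: the median over all protein-coding genes was 2, 81.9% had at least 1 and 14.4% had at least 4. The match nearest to each of the elt-2 and elt-7 starts is shown, since END proteins and ELT-2 itself are known to bind such sites.

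elt-2, chrX:10481155-10481183, first motif base 74 bp before the gene: actgttttcatTGATAAgttttgatgtat
elt-7, chrV:4770581-4770609, 78 bp before: gccggtctatcTTATCActctgacctttt

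Summits, the highest point of each peak, were counted from 1000 bp before the 5' end of a gene to 500 bp past its 3' end. The optimal list holds 724 peaks kept by the irreproducible discovery rate (IDR) procedure, which weighs how alike peaks rank in replicates. The pooled list and the list of each replicate hold 30000 peaks apiece and include background, so a summit there is a position with a rank and no more. Rank 1 is the highest signal of a list. The signal ran from 8.09 to 1410 over the pooled peaks, from 5.17 to 817 for replicate 1 and from 4.15 to 606 for replicate 2, and its scale is not stated, so values are not compared between lists. The pooled peaks covered 10.3% of the nuclear genome. Read depth is unknown, because the lists carry no read counts.

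AMA-1 summits were found at elt-1 and were scarce at the other 7 genes. No member had an optimal summit (0 of 8), where 4.18% of all protein-coding genes had one. The gene elt-1 was the single member with a summit in the upper 2000 pooled peaks (1 of 8), against 9.67% of all genes. It was again the single member in the whole pooled list, where 37.9% of all genes had a summit. The same gene was the 1 member with a summit in all 3 long lists, against a share of 33.8%. With 8 genes, counts of 0 and 1 lie near the shares of the upper lists, and 1 of 8 lies below the shares of the long lists. The genes med-1, med-2, end-3, elt-7, elt-2 and elt-3 had no summit in any of the 3 long lists (6 of 8), as did 54.6% of all genes.

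**Figure D1:**
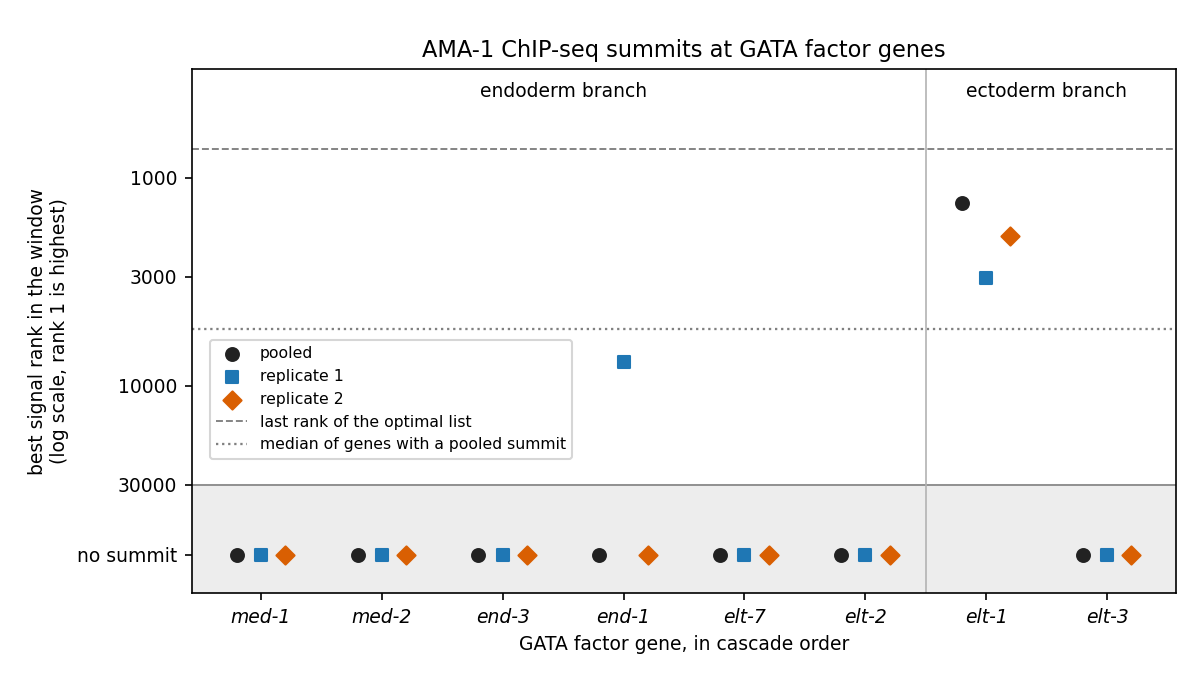
Best signal rank of each GATA factor gene in the pooled list (circles), replicate 1 (squares) and replicate 2 (diamonds), on a log axis with better ranks higher; the grey band holds genes with no summit, the dashed line is the last rank of the optimal list (724) and the dotted line the median best pooled rank of genes with a pooled summit (5370). The points of elt-1 lie between rank 1324 and rank 3030, end-1 has a point in replicate 1 alone, and the other 6 genes have none.

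Place and length in the genome go with how often a gene has no summit at all. On chromosome X, 64.6% of the 2731 protein-coding genes had none in the 3 long lists, and so did all 3 members there, med-1, elt-2 and elt-3. On chromosome V the share was 73.1% of 4994 genes, and end-3 and elt-7 (2 of 3 members) were among them. Among genes with a body under 2500 bp the share was 64.8%, and 5 of the 6 members of that size had no summit. Among genes over 5000 bp it was 27.9%, and elt-3, at 6343 bp, was such a gene while elt-1, at 5286 bp, was not. The members had a median length of 2070 bp, close to the 2030 bp of all genes. Whether length or chromosome has a part in the members' counts was not tested.

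The first zygotic genes of the cascade, med-1 (WBGene00003180, X, 12430609 to 12431133) and med-2 (WBGene00003181, III, 6884503 to 6885027), had no summit in any list. Each is 525 bp long and has no intron in the annotation. The nearest pooled summit lay 19613 bp before med-1, inside lin-2, at rank 18432. The nearest in replicate 1 was 15812 bp past the gene (rank 28374) and in replicate 2 it was 22326 bp past (rank 29914). For med-2 the nearest pooled summit lay 7249 bp past the gene, in K04C2.2 (rank 25779), while the replicates had summits in the neighbouring gene brd-1, 2880 bp past med-2 in replicate 1 (rank 6856) and 2149 bp past in replicate 2 (rank 29215). The pair is hard to tell apart by short sequences. The gene bodies were identical in 512 of 525 aligned positions (97.5%), and 45.3% of the 31-letter words of either body occurred once in the genome. In the 1000 bp before them the words were mostly single (95.4%), as were 83.9% over the whole window. No source at hand says how the authors treated reads that match several places, and the lack of a summit inside these gene bodies is uncertain.

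The endoderm genes end-3 (WBGene00001311) and end-1 (WBGene00001310) lie near each other on chromosome V, at 14014695 to 14015980 and 13985128 to 13987074. At end-3 no summit fell in the window, whose words were 99.7% single. The summits nearest to it lay in aip-1, the gene before it, at 1874 bp in the pooled list (rank 12893), 1569 bp in replicate 1 (rank 18291) and 1872 bp in replicate 2 (rank 8915). All 3 lie outside the window and outside the stretch with the MED sites. On the other side the next summit, at the same 12464 bp in all 3 lists, was a high one and lay in no protein-coding gene. Whether a noncoding gene lies there was not looked up. This summit stood at rank 94 among the pooled peaks, with 464 and 86 for replicates 1 and 2.

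A single summit fell in the window of end-1, in replicate 1 alone. It lay 356 bp past the 3' end of end-1, at chrV:13987430, with rank 7718 and a signal of 13.85. At that place lies ric-7, known for its role in neurons, which runs on the opposite strand toward end-1, so the summit is also in a gene body other than that of end-1. Replicate 2 had no summit within 7348 bp, and the nearest pooled summit lay 1028 bp past the gene, also in ric-7, at rank 20457. The pattern of a summit in replicate 1 and in neither of the other long lists was seen in 4.36% of all genes. No list had a summit in the body of end-1 or in the 1000 bp before it, where the MED sites lie, and every 31-letter word of the window was single in the genome.

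The genes that hold the intestinal state, elt-7 (WBGene00015981, V, 4770670 to 4773086) and elt-2 (WBGene00001250, X, 10481240 to 10483441), lay far from any summit in every long list. The nearest summit to elt-7 was at 29045 bp in the pooled list, 29002 bp in replicate 1 and 29198 bp in replicate 2. The nearest to elt-2 was at 27562 bp, 26216 bp and 28482 bp in the same order, each time in vab-3, a homeobox gene. These distances were alike in both replicates. The stretch without a pooled summit around elt-2 was 78376 bp long and that around elt-7 63028 bp. Such stretches are not rare: 23.4% of the nuclear genome lay in pooled stretches at least as long as that of elt-2, and 29.5% in stretches at least as long as that of elt-7. Among the other members with no pooled summit, the stretch was 58979 bp at elt-3 and 42761 bp at med-1. It was 21939 bp at end-1, 19011 bp at med-2 and 15623 bp at end-3. Repeats in the windows were few, with 99.3% of 31-letter words single at elt-2 and 93.2% at elt-7.

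**Figure D2:**
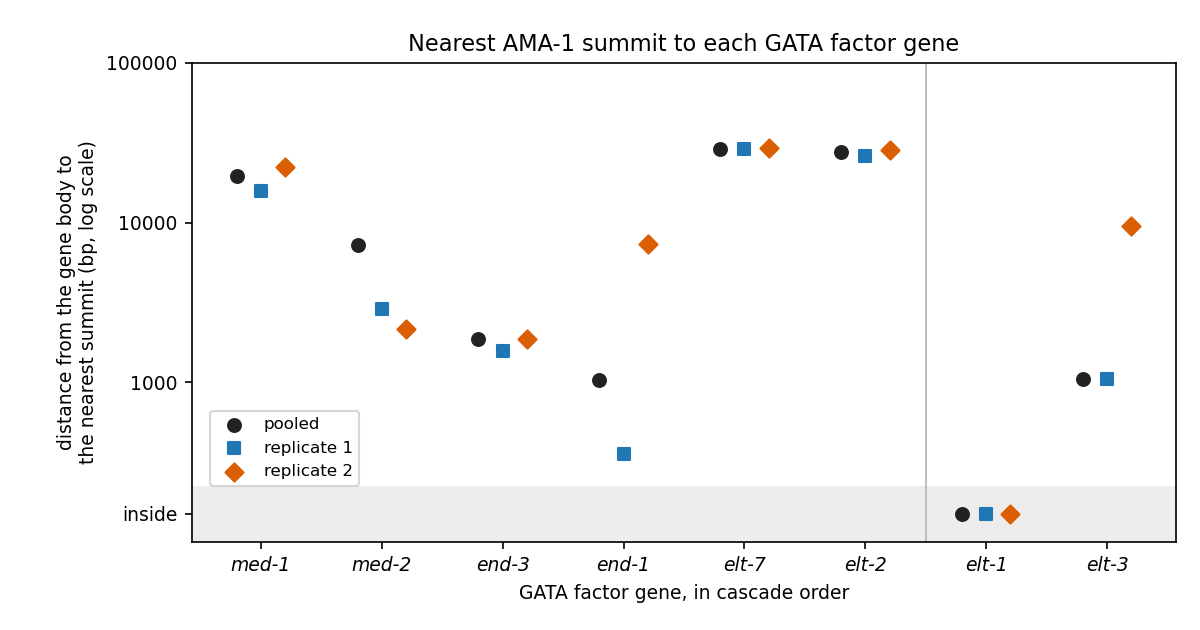
Distance from the body of each GATA factor gene to the nearest AMA-1 summit in each long list, on a log axis; points in the grey band have summits inside the gene. For elt-7 and elt-2 all points lie at 26216 bp or farther and close together, for elt-1 all lie inside, and for end-1 and elt-3 the lists differ.

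The gene elt-1 (WBGene00001249, IV, 9614995 to 9620280) carried several summits in every long list. There were 6 among the pooled peaks, 6 for replicate 1 and 7 for replicate 2. The median over protein-coding genes with a pooled summit was 3. That median covers genes of any length, whereas elt-1, at 5286 bp, is longer than the 2030 bp median of all genes. The counts were not matched for length, so 6 beside 3 does not show that elt-1 has many summits for its size. All of the elt-1 summits in the 3 long lists lay inside the gene body and in the window of no other protein-coding gene. The piRNA gene 21ur-15550, which lies on the other strand in an elt-1 intron, was within 200 bp of 1 summit in each list.

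The highest pooled summit of elt-1 stood at rank 1324 with a signal of 41.72. That is below the lowest signal in the optimal list, 50.7, so the gene fell short of that list. A better best rank was held by 1384 protein-coding genes (6.93%), and the median best rank of genes with a pooled summit was 5370. Both values cover genes of any length and were not matched to the length of elt-1. The best rank was 3030 in replicate 1 and 1903 in replicate 2, a mean of 2470 ± 797 (SD, n = 2). No member had a summit in the upper 2000 of both replicates (0 of 8, against 5.32% of all genes), since replicate 1 ranked elt-1 lower.

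The replicates placed the main summit at nearly the same base. It lay at chrIV:9618287 by the pooled peaks. Replicate 1 had it at 9618301 (signal 19.94) and replicate 2 at 9618268 (signal 20.84), 33 bp apart. Its rank was 3030 in replicate 1, where it was the best of the gene, and 2250 in replicate 2. Replicate 2 had its best elt-1 summit elsewhere, at 9619096 (rank 1903), and the matching summit of replicate 1, 135 bp away, stood at rank 11105. Of the 6 summits of replicate 1, 3 had a summit of replicate 2 within 200 bp. Of the 6 pooled summits, 4 had a summit within 200 bp in replicate 1 and all 6 in replicate 2. These are not all separate partners. The pooled summits at 9618928 and 9619133 had the same nearest summit in replicate 1 (9618961) and in replicate 2 (9619096). The pooled list also comes from the same replicates, so its nearness to them is partly built in.

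The summits of elt-1 were mostly in the middle and the latter part of the gene. With the gene cut into 4 parts of equal length, the pooled summits numbered 0, 1, 2 and 3 from the 5' to the 3' part. Replicate 2 had 1, 2, 1 and 3 in the same order. Replicate 1 had 0 and 2 in the first 2 parts and its other summits in the last 2. Those last 2 parts are not counted apart for replicate 1, because its summit 3966 bp past the 5' end lay almost on their border. The pooled summit nearest to the annotated 5' end was 2556 bp past it, and the nearest in replicate 2 was 964 bp past it. None lay in the 1000 bp before the gene. The annotation gives elt-1 6 transcripts with several starts, so a summit inside the longest model can be upstream of a shorter one. Whether any elt-1 summit is so placed was not looked up.

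By the exon models, 4 of the pooled summits fell in introns, 1 in a coding exon and 1 in the 3' UTR. The main summit was in the longest intron, which runs from 9617414 to 9618504 and is 1091 bp long. That intron also held the pooled summit at rank 7799. The summit at rank 3722 was in the next intron, of 686 bp, together with the one at rank 20823. The last exon held the 2 remaining ones, at ranks 25190 and 12664. Replicate 1 differed in that 4 of its 6 summits fell in coding exons, and replicate 2 had 5 of 7 in introns.

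**Figure D3:**
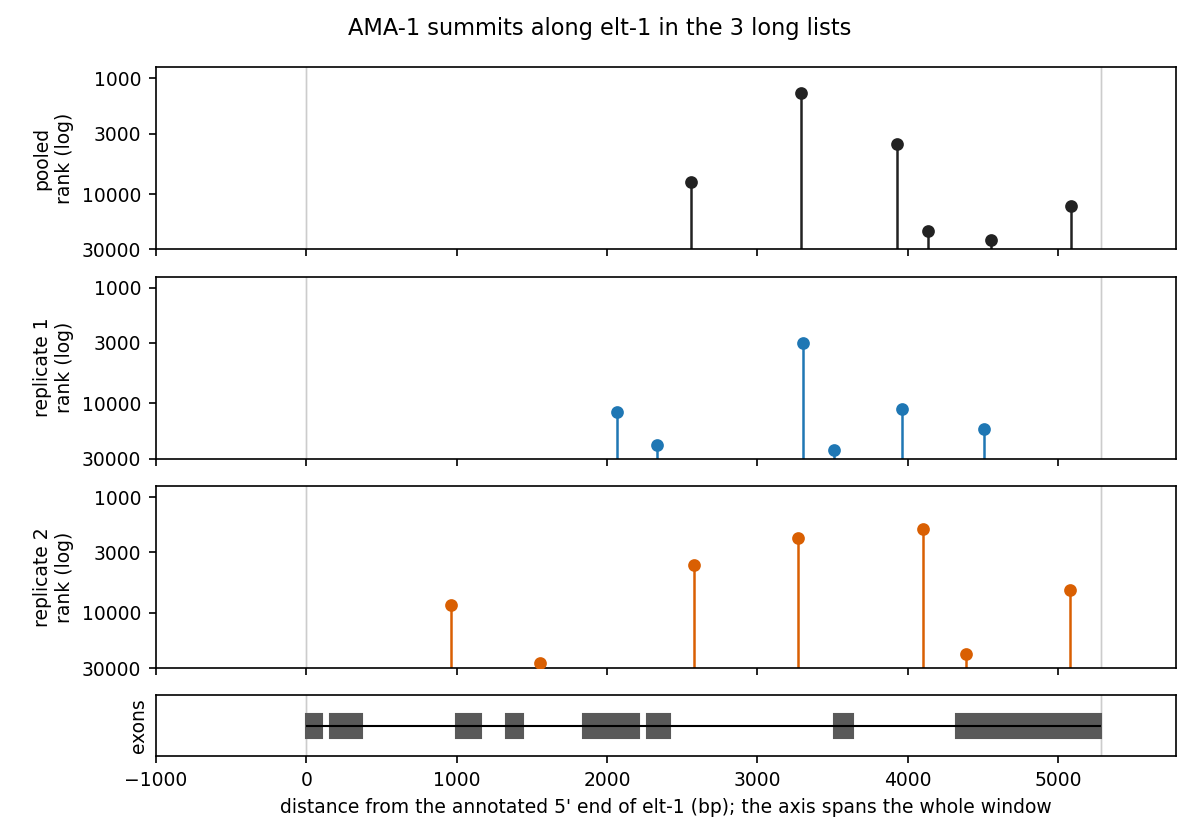
Summits along elt-1 by distance from the annotated 5' end in the pooled list and the 2 replicates, with the height of each line giving its rank on a log axis, and the merged exons of the gene at the bottom. All 3 lists have a summit between 3273 and 3306 bp, and the first 2000 bp of the gene hold summits in replicate 2 alone.

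The sequence under the main summit is shown because it carries the highest pooled AMA-1 signal found at any of the 8 genes. The 300 bases centred on it, chrIV:9618137-9618436 on the plus strand of ce11, are intronic, and capitals mark the only GATA-type match in them.

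elt-1 intron: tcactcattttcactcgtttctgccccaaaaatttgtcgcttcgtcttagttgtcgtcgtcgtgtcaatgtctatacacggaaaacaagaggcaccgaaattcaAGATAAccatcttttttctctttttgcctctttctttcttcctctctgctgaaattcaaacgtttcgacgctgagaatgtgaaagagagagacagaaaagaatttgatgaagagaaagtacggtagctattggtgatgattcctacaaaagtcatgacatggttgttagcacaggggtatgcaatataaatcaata

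The stretch had a GC content of 39.0%, beside a median of 38.3% over the same length around all 30000 pooled summits. A match to TGATAA or AGATAA was present in 31.1% of those stretches, so a match is common. All 31-letter words of the elt-1 body occurred once in the genome.

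The second ectoderm gene, elt-3 (WBGene00001251, X, 13934874 to 13941216), had no summit in its window although it is the longest of the 8. A summit lay just outside, 1050 bp past the gene in the pooled list (rank 22650) and 1052 bp past it in replicate 1 (rank 6490). Replicate 2 had none there, and its nearest lay 9555 bp past the gene in alg-1, an Argonaute gene, at rank 3488. The lists thus differed on the 3' side of elt-3 and had no summit in the gene itself. On the 5' side they differed too, with the nearest summit at 51587 bp in the pooled list, 52978 bp in replicate 1 and 17597 bp in replicate 2.

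The order of the members by best rank was elt-1 first and, in replicate 1 alone, end-1 second, at 3030 and 7718. The other 6 genes have no rank and cannot be ordered. Over the 2 replicates, the genes whose best ranks were nearest to those of elt-1 were Y5F2A.4, ZC132.3 and gsr-1, a glutathione reductase gene. Their distances on the log10 scale were 0.0149, 0.0193 and 0.0234. Y5F2A.4 had best ranks of 2989 and 1964, ZC132.3 had 2994 and 1986, and gsr-1 had 2883 and 1943. With 2 replicates, such likeness describes 2 numbers per gene. In the pooled list they stood apart from elt-1, at 4110, 1930 and 5332.

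Of 5 other GATA-type zinc finger genes, egl-27 had an optimal summit (1 of 5, beside 4.18% of all genes). A summit in the upper 2000 was found for 4 of the 5 by the pooled peaks (9.67% of all genes) and for the same number by both replicates (5.32%). The median length of these 5 genes was 7809 bp, beside 2070 bp for the 8 GATA factor genes. The best pooled ranks were 316 for egl-27, 749 for lin-40, 944 for elt-6 and 982 for egl-18. The products of egl-27 and lin-40 are related to the MTA proteins of chromatin complexes, and egl-18 and elt-6 are neighbouring genes of epidermal seam cells. All of these best pooled summits lay inside the gene, as at elt-1. In replicate 2 the neighbours elt-6 and egl-18 shared their best summit, at rank 499. The exception was elt-4, a short gene of 433 bp that lies before elt-2 on X, with no summit in any list. The genes with summits are longer, from 3667 bp at elt-6 to 15519 bp at egl-18.

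Of 14 genes in a list of maternal factors and of signals around EMS, 6 had an optimal summit (4.18% of all genes). The upper 2000 pooled peaks held a summit of 9 of them (9.67% of all genes), and the whole pooled list one of 13 (37.9%). The median best pooled rank was 1030 over the 13, beside 5370 over all genes with a summit, and the median length was 4892 bp beside 2030 bp over all genes. The best were src-1, a Src kinase gene (242), sys-1, a beta-catenin gene (253), and mom-5, a Frizzled receptor gene (291). The remaining genes with an optimal summit were lit-1, the Nemo-like kinase gene (500), pop-1, the TCF gene (509), and skn-1, the activator of the MED genes (537). For 4 of the 13, among them sys-1, the best summit lay past the 3' end. At 8 of the 13, again with sys-1, it was also in the window of another protein-coding gene, eif-3.C in that case. The 1 gene with no summit was mes-1, on X.

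Of 8 regulators of the MS lineage and mesoderm, 0 had an optimal summit (4.18% of all genes), 1 was in the upper 2000 pooled peaks (9.67%) and 4 had none in the 3 long lists (54.6%). These counts lie near the shares of all genes, and the median length of the list was 2320 bp. The gene in the upper 2000 was hlh-1, the MyoD gene of body wall muscle, with rank 988 at 68 bp before its 5' end. The pharyngeal gene pha-4 stood at 3606, the muscle gene unc-120 at 15536 and ceh-51 at 17726. The direct MED target tbx-35 had no summit in any list, as at end-3 and end-1 in the pooled list.

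Of 16 genes of the differentiated intestine, 0 had an optimal summit (4.18% of all genes), 1 was in the upper 2000 pooled peaks (9.67%) and 13 had none in any long list (54.6%). Their median length was 2996 bp. The pooled list had summits at erm-1, the ezrin gene, which held 12, and at spl-1, a sphingosine phosphate lyase gene, which held 2. The best of each lay past the 3' end, by 261 bp at erm-1 (rank 788) and by 283 bp at spl-1 (rank 2705). Inside the genes the best ranks were 2073 at erm-1 and 28710 at spl-1. The best erm-1 summit was also in the window of dnj-4. The third gene, itr-1, had summits in replicate 1 alone, the best at rank 21470. The ELT-2 targets ges-1, an esterase gene, and mtl-2, a metallothionein gene close to end-3, had none.

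Of 18 epidermal genes, 4 had an optimal summit (4.18% of all genes) and 9 were in the upper 2000 pooled peaks (9.67%). In the upper 2000 of both replicates there were 7 (5.32%), and 16 had a pooled summit (37.9%). The median best pooled rank was 1600 over the 16 and the median length of the list was 5884 bp. The optimal ones were die-1, a zinc finger gene of epidermal morphogenesis (217), the cadherin gene hmr-1 (221), dlg-1, which encodes a scaffold of the apical junction (394), and sma-1, which encodes a spectrin (558). The epidermal fate gene lin-26 stood at 1487, with best ranks of 488 and 905 in the replicates. Its best pooled summit was also in the window of F18A1.1, and 5 of the 16 best epidermal summits were in such shared windows. Many of these genes act in other cells too, and differences between the lists, which differ in gene length, were not tested.

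**Figure D4:**
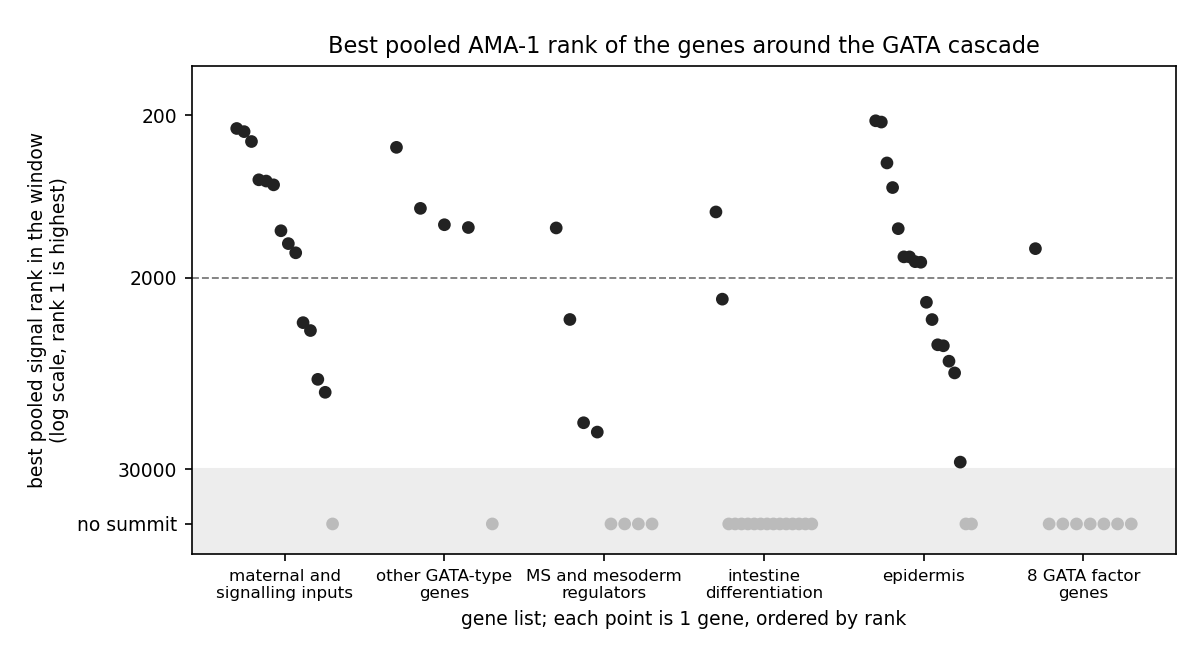
Best pooled rank of every gene in 5 lists around the GATA cascade and of the 8 GATA factor genes, on a log axis with better ranks higher; each point is 1 gene, grey points have no pooled summit, and the dashed line marks rank 2000. Maternal inputs and epidermis have 9 genes each above the line, intestine differentiation has 1, and the GATA factor genes have elt-1 alone.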

How the data were processed

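AMA-1 ChIP-seq peak lists of 2 replicates of 1 group were read as deposited, on ce11. The deposited signal of each peak has no stated scale and served to rank the peaks of each list, tied peaks sharing the mean rank. The deposited −log10 q-value was not used for ranks, apart from an added alternative. Per the deposited text notes, the long lists are input for IDR, made against a control that is not analysed here, and the optimal list is IDR-thresholded. It held exactly the upper 724 pooled peaks. The sources used here name no aligner, caller or IDR threshold. Lists on ce10 were not used, since the annotation is of ce11.

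Genes came from Ensembl release 115 (WBcel235), and 0 peaks ran past a chromosome end. Ranks, counts and windows were computed with Python 3.11.15 and pandas 2.3.3, without any test, and the window code was tested on simulated data. Motifs and 31-letter words were searched in the RefSeq WBcel235 sequence. The members and lists were chosen with earlier results of these data known. Named genes are the members, genes sharing a member's summit, the 4 best-ranked of each list with those in the optimal list, and the 3 genes most like elt-1. Neighbours of members and of list genes, further list genes, and elt-4, tbx-35, ges-1, mtl-2, mes-1, itr-1 and lin-26 were named after their values were seen.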

Additional observations from a re-analysis of the deposited data

How the results depend on the processing

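Of 53 values under other settings, 43 stayed near the reported one, which for a count means within 1.5 times it and for the elt-1 rank within 1 SD of the replicates, and 10 moved further. Some of the 43 could not have moved: where the reported count was 0, settings that only narrow the list or the window leave it at 0. The SD for elt-1 is that of the 2 replicate ranks, which are themselves among the values judged. No member had an optimal summit in any setting tried. The member in the upper 2000 pooled peaks, elt-1, was lost (0) in the upper 1000 and with a window of 500 bp before to 200 bp inside the 5' end. With each replicate's own upper 2000 in turn the count ran from 0 to 1, and it was 0 without replicate 2. The best rank of elt-1 ran from 1903 to 3030 over the replicates. In the upper 5000 of both replicates the count rose from 0 to 1 (elt-1). In all 3 long lists it was 2 with 2000 bp before the gene, where end-3 gained summits inside aip-1, and 0 with the narrow 5' window. The cause of these shifts was not tested. Settings chosen after seeing the data moved the pathway counts: with 500 bp before the gene and nothing past it, maternal inputs fell from 9 to 5 and intestine genes from 1 to 0. Over single replicates the intestine count ran from 1 to 2, maternal inputs from 6 to 9 and epidermis from 8 to 12. RefSeq gene bounds moved none of the 4 member counts and were not run for the pathway lists. Ranking by the p-value column could not be run, since it holds a single value throughout. Ranked by the −log10 q-value, elt-1 stood at 955, tied with all 1909 pooled peaks of the highest value. No paired analysis was possible because there is 1 group. Unknown depth and 2 replicates limit every rank.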
